A study of Mus musculus with 16 samples.

Results

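The clustered protocadherins are 58 gene identifiers whose symbols begin with Pcdha, with Pcdhb and a number, or with Pcdhg, out of 57132 genes counted in mouse neural stem cell RNA-seq libraries. They were chosen by symbol alone and comprise 12 variable alpha genes, 2 alpha C-type genes, 22 beta genes, 12 gamma A genes, 7 gamma B genes and 3 gamma C-type genes. The symbol Pcdha11 is carried by 2 identifiers, ENSMUSG00000007440 and ENSMUSG00000102206, and no identifier carries the symbol Pcdha10. Pcdhga10 was listed at 0 in all 12 libraries.

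Clustered protocadherins are single-pass membrane proteins of the cadherin superfamily that bind identical copies of themselves on neighbouring cells. The alpha, beta and gamma genes stand in 3 arrays beside each other, and each cell switches on a small, partly random set of variable promoters through CTCF, cohesin and promoter methylation, which gives neurons a surface identity used in self-avoidance of their branches. The C-type isoforms, at the ends of the alpha and gamma arrays, are known to be regulated differently from the variable ones. Alpha isoforms share constant exons that encode their common cytoplasmic end, gamma isoforms share another set, and beta isoforms have no constant exons.

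The cells were grown in a self-renewing medium labelled GF, and 6 libraries were labelled gRNA and 6 control. The gRNA libraries received a treatment called TAPIR, and the controls did not. Each of 2 labelled batches holds 3 gRNA and 3 control libraries. The labels do not say what TAPIR targets, what the controls received, from which animals or line the cells came, or whether replicates were separate cultures, so the targeted gene could not be checked, and every p-value measures the spread of these libraries alone, which may be technical. Batch is the submitters' label, and culture, preparation and sequencing cannot be told apart within it.

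Gene counts per library ran from 8414028 to 19454390, with a median of 14918917, and no pair of the 66 library pairs held identical counts. Clustered protocadherins took 0.0646% to 0.0843% of these counts in batch 1 and 0.0545% to 0.0945% in batch 2. Reads outside any gene were 18.95% to 25.07% of a library in batch 1 and 8.83% to 12.7% in batch 2, and ambiguous reads 3.22% to 3.58% and 3.88% to 4.06%; their part in the batch differences was not tested. The sources used here do not state how reads in the alpha and gamma constant exons were assigned. HTSeq by default leaves a read that fits several genes uncounted. In batch 2 the gamma genes ran from 0 reads (Pcdhga10) and 19 reads (Pcdhgb5) to 9496 reads (Pcdhgc3), so no common set of reads was added to all of them. Near-identical beta genes can lose or exchange reads in the same way, and without a stated strand setting antisense reads cannot be told apart. Control replicate 3 of batch 2 stood apart from the other 5 libraries of its batch, and its values are given beside the results they touch. The 10 stem and progenitor markers were found in both batches, although Prom1 was at 0.283 CPM on average in batch 2 and at 0 in its lowest library. Their summed level was 1666 to 2778 CPM (counts per 1000000 gene counts, with TMM-scaled library sizes) in batch 1 and 1537 to 1980 CPM in batch 2.

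The batches used different isoforms. Isoforms encoded early in the beta array were several-fold higher in batch 2, all tested gamma A and gamma B isoforms were lower, Pcdhac2, Pcdhgc4 and Pcdhgc5 were lower, and Pcdhgc3 differed little. Of 58 members, 45 passed the low-count filter, 10 rose and 25 fell in batch 2 by edgeR's quasi-likelihood test (adjusted p under 0.05, Benjamini-Hochberg over all genes), and 10 did not pass. The same test called 28.4% of all 17704 genes tested higher and 33.1% lower, 61.4% in all, so a call alone does not set a member apart. By size, 23 of 45 tested members were called with a difference above 2 on the log2 scale, against 16.6% of all genes tested, but this count includes members tested only because they were high in batch 1. The batches' levels did not overlap for 10 higher and 21 lower members, while among all genes tested 17.3% were higher without overlap and 24.3% lower, 41.6% in all. The median log2 fold change was -0.75 over the members tested and -0.03 over all genes tested. Of the 45, 40 also passed the filter in each batch alone, so their place in the test did not depend on 1 batch being high. Among these 40, the count was 10 higher and 20 lower, and 18 were called with a difference above 2, against 5.38% of the 14376 genes that passed the filter in each batch alone. The share of these 14376 genes called at any size was not computed, so the 10 and 20 have no matching share. The other 5, Pcdha12, Pcdhgb4, Pcdhgb5, Pcdhga11 and Pcdhga12, passed only through batch 1, where they were high, so a fall was the only call open to them, and their p-values are given as descriptions. Fold changes below are batch 2 against batch 1, on a log2 scale. CPM and shares of reads are not corrected for gene length, so they compare 1 isoform between libraries and do not rank isoforms by transcript number.

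**Figure D1:**
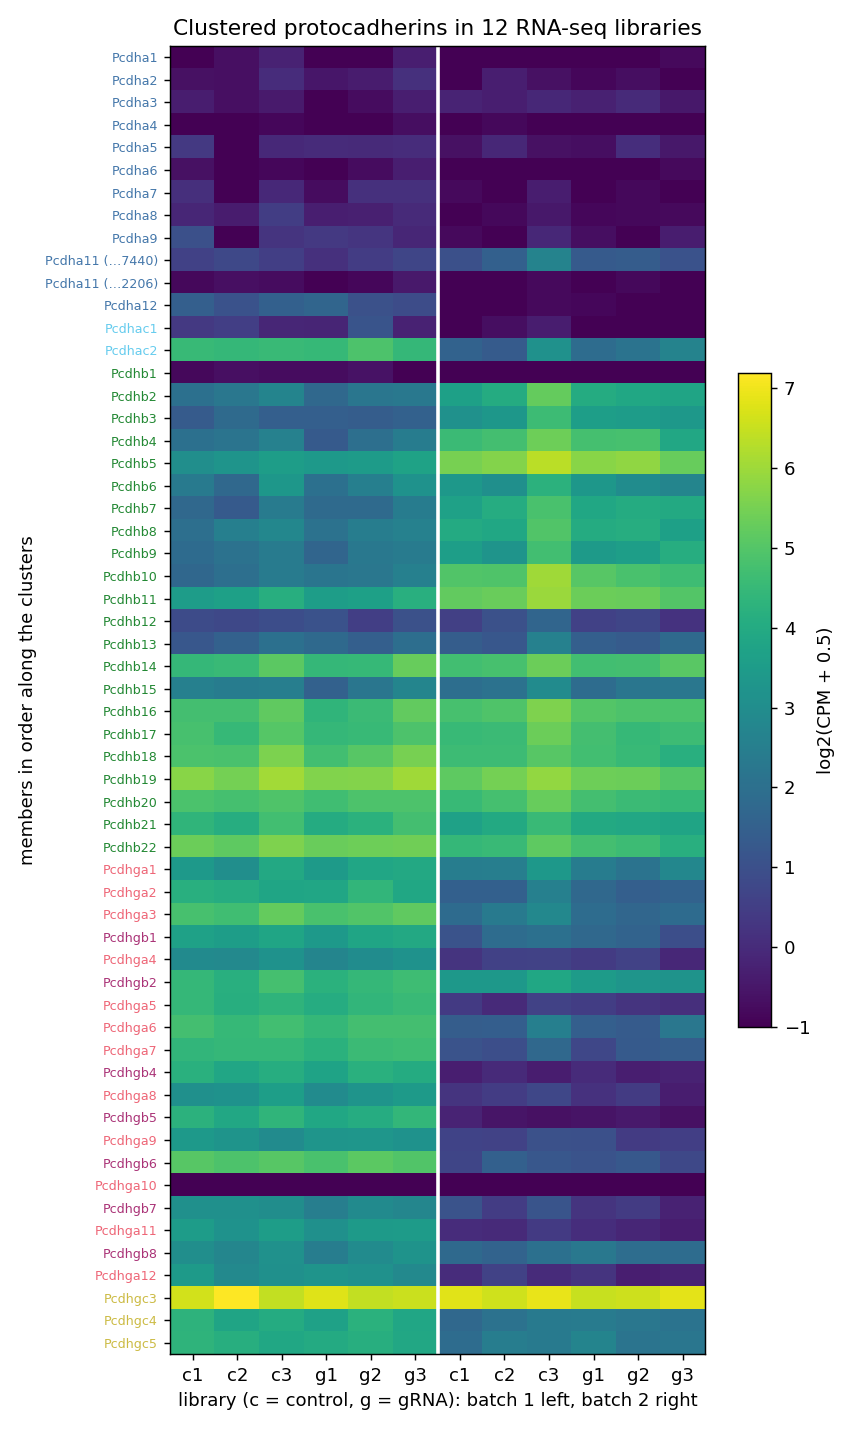
Level of each of the 58 clustered protocadherins (rows, in order along the clusters) in each of the 12 libraries (columns), as log2(CPM + 0.5) on a colour scale. The early beta rows are brighter in batch 2, the gamma A and B rows are darker there, and Pcdhgc3 is bright in all 12 libraries.

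Variable alpha isoforms were scarce in both batches, and only Pcdha12 and the identifier ENSMUSG00000007440 of Pcdha11 passed the filter. These isoforms differ from each other in their extracellular, recognition part. Pcdha12 lay at 1.37, 1.93 and 2.69 CPM (lowest, median and highest of 6 libraries) in batch 1 against 0, 0 and 0.0727 CPM in batch 2. The batches did not overlap, and only 2 reads of Pcdha12 were counted in all of batch 2 against 167 in batch 1, a ratio of 89.1 after allowing for library size with an exact interval of 24.3 to 741 that covers counting error only. Pcdha11 (ENSMUSG00000007440) went the other way, from 0.598, 0.964 and 1.19 CPM in batch 1 to 1.501, 2.06 and 5.89 CPM in batch 2. All 6 libraries of batch 2 were above all 6 of batch 1, with control replicate 3 of batch 2 highest by far. Its log2 fold change was 1.38 (SE 0.32, adjusted p = 0.00177).

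The other variable alpha members did not pass the filter and were not tested. Pcdha9 had 62 reads in batch 1 and 13 in batch 2, Pcdha5 had 43 and 25, and Pcdha3 had 17 and 33. The second Pcdha11 identifier had 9 and 2 reads. As a share of variable alpha reads, Pcdha12 fell from 35.4% ± 10.9 (SD, n = 6) to 0.497% ± 0.845, and Pcdha11 (ENSMUSG00000007440) rose from 17.8% ± 7.98 to 68.3% ± 5.88. A single identifier thus took most of the variable alpha reads in every library of batch 2, a statement that rests on 29 to 106 reads per library. Which exons this identifier covers was not examined. The summed level of the class was 5.75 ± 1.39 CPM in batch 1 and 3.68 ± 2.04 CPM in batch 2, a difference that did not pass (adjusted p = 0.065, exact permutation test). Without control replicate 3 of batch 2 the difference passed, at -0.88 on the log2 scale with an adjusted p of 0.0129 by the same exact permutation test.

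The beta isoforms, which have no shared cytoplasmic domain, divided by position. Of the 21 tested, 9 rose, 3 fell and 9 did not pass, where 28.4% of all genes tested rose and 33.1% fell. All 9 that rose lie among Pcdhb2 to Pcdhb11: of the 10 tested there, 9 rose, and Pcdhb6, at 0.71 (SE 0.31, adjusted p = 0.0606 by edgeR), did not pass. From Pcdhb12 to Pcdhb22, 11 were tested, 0 rose and 3 fell. The boundary between Pcdhb11 and Pcdhb12 was chosen after the values were seen. The median log2 fold change was 2.16 before it and -0.10 after it.

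Pcdhb10 had the largest rise of the beta isoforms. It lay at 2.83, 4.18 and 5.42 CPM (lowest, median, highest) in batch 1 against 24.5, 30.4 and 63.9 CPM in batch 2. Every batch 2 library was far above every batch 1 library, and control replicate 3 was the highest. The log2 fold change was 3.03 (SE 0.24, adjusted p = 8.8e-08, edgeR), and over the fits that leave out 1 library at a time it ranged from 2.80 to 3.15.

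Pcdhb4 was next, with 1.99, 3.75 and 5.53 CPM in batch 1 and 14.6, 26.5 and 41.6 CPM in batch 2. The groups did not overlap, and in batch 2 gRNA replicate 3 was the lowest library and control replicate 3 the highest. Its log2 fold change was 2.74 (SE 0.24, adjusted p = 2.1e-07, edgeR).

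Pcdhb5 took the largest share of beta reads in batch 2. It lay at 7.70, 10.5 and 12.8 CPM in batch 1 against 38.8, 51.1 and 80.4 CPM in batch 2, with no overlap. Its log2 fold change was 2.38 (SE 0.18, adjusted p = 4.1e-08, edgeR), and its share of beta reads rose from 3.20% ± 0.457 (SD, n = 6) to 11.3% ± 0.888.

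Pcdhb3 moved in the same way, from 2.05, 2.29 and 3.05 CPM to 8.41, 10.4 and 23.9 CPM. Pcdhb7 lay at 1.99, 3.08 and 4.89 CPM in batch 1 against 12.4, 15.6 and 28.0 CPM in batch 2. Neither isoform had batches that overlapped, and control replicate 3 was the highest batch 2 library for both. By edgeR their log2 fold changes were 2.37 (SE 0.25, adjusted p = 1.5e-06) for Pcdhb3 and 2.25 (SE 0.24, adjusted p = 2.0e-06) for Pcdhb7.

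Pcdhb11, the last isoform before the boundary, had more reads in batch 1 than any of the other early ones, at 11.1, 12.2 and 17.3 CPM. In batch 2 it lay at 31.1, 39.7 and 62.2 CPM, again without overlap. The rise of 1.61 (SE 0.17, adjusted p = 1.6e-06, edgeR) was the smallest of the 9. Pcdhb2, Pcdhb8 and Pcdhb9 rose by 2.06, 1.80 and 1.83, also with no overlap between batches. Pcdhb1 had 8 reads in batch 1 and 0 in batch 2 and was not tested.

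The late beta isoforms differed much less. Pcdhb19 lay at 43.6, 51.0 and 65.6 CPM in batch 1 against 31.4, 40.8 and 57.7 CPM in batch 2. Pcdhb18 lay at 25.6, 30.8 and 46.7 CPM and at 17.6, 24.0 and 32.8 CPM, and Pcdhb22 at 35.0, 40.9 and 47.7 CPM and at 17.3, 23.5 and 35.2 CPM. The ranges of both batches overlapped for all 3, for Pcdhb22 only through control replicate 3 of batch 2. By edgeR, Pcdhb22 fell by 0.75 on the log2 scale (SE 0.14, adjusted p = 3.1e-04), Pcdhb18 by 0.51 (SE 0.17, adjusted p = 0.0178) and Pcdhb19 by 0.39 (SE 0.14, adjusted p = 0.0264). The call for Pcdhb18 was lost without control replicate 3 of batch 1 (-0.37, adjusted p = 0.0846). The call for Pcdhb19 was lost without replicate 3 of either treatment in batch 1, without control replicate 1 of batch 2 or without gRNA replicate 3 of batch 2, with values of -0.33 to -0.30 and adjusted p-values of 0.0619 to 0.106 by edgeR.

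The shift shows in the share of beta reads that fell on Pcdhb1 to Pcdhb11. In batch 1 it was 15.1%, 17.97% and 18.2% (lowest, median, highest), with a mean of 17.4% ± 1.22 (SD, n = 6). In batch 2 it was 48.3%, 50.8% and 55.5%, with a mean of 51.2% ± 2.46, and the highest value was that of control replicate 3. Among the late isoforms, the share of Pcdhb19 was 16.8% ± 0.9496 in batch 1 and 8.85% ± 0.787 in batch 2, and that of Pcdhb22 was 12.8% ± 1.33 and 5.18% ± 0.434. The summed beta level was 324 ± 58.3 CPM in batch 1 and 476 ± 135 CPM in batch 2, a 1.45-fold difference on the mean log2 scale (adjusted p = 0.0257, two-sided exact permutation test within treatment). The batches overlapped: they ran from 271 to 402 CPM and from 377 to 745 CPM. The call was lost without control replicate 1 of batch 1 (0.50, adjusted p = 0.0514 in the exact permutation test).

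**Figure D2:**
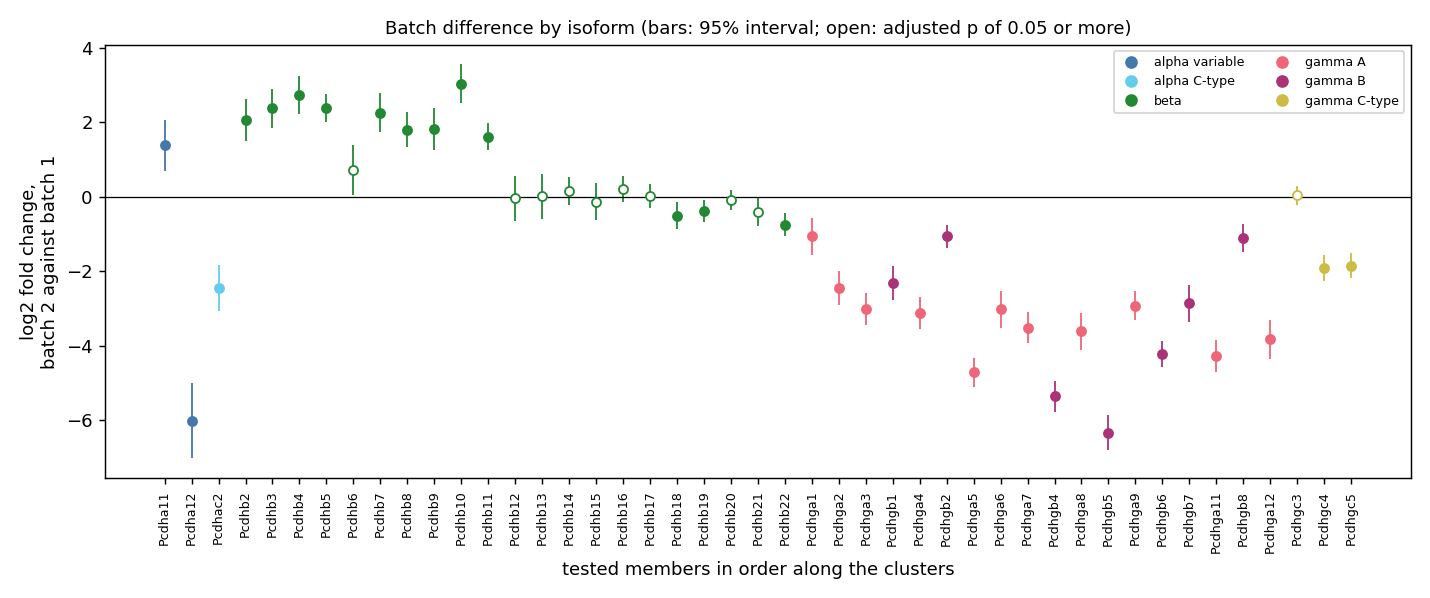
Log2 fold change of batch 2 against batch 1 (vertical axis) for the 45 tested members in order along the clusters (horizontal axis), with 95% intervals, and open points where the adjusted p was 0.05 or more. Among beta isoforms, values lie between 1.61 and 3.03 from Pcdhb2 to Pcdhb11 except Pcdhb6 (0.71) and between -0.75 and 0.20 from Pcdhb12 to Pcdhb22, and all gamma A and gamma B isoforms tested lie below -1.

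Gamma A and gamma B isoforms, the variable part of the gamma array, fell throughout. All 11 gamma A and all 7 gamma B isoforms tested were lower in batch 2, from -6.34 to -1.07, with a median of -3.08. Of these 18, the filter in batch 2 alone kept 14, and these 14 were all called lower too. The batches did not overlap for 17 of the 18, while 24.3% of all genes tested were lower without overlap. The 17 and the median include Pcdhgb4, Pcdhgb5, Pcdhga11 and Pcdhga12. These passed the filter only through batch 1, where they were high, so for them both are descriptions. Pcdhga1 was the isoform with overlap.

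Pcdhgb5 had the largest fall. It lay at 14.3, 17.4 and 20.8 CPM (lowest, median, highest) in batch 1 against 0.145, 0.176 and 0.375 CPM in batch 2. In reads, that is 1546 in batch 1 and 19 in batch 2. The log2 fold change was -6.34 (SE 0.22, adjusted p = 2.3e-11, edgeR), for an isoform with 2 to 5 reads per library in batch 2 that was tested only because of its level in batch 1.

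Pcdhgb4 lay at 13.0, 16.4 and 17.99 CPM in batch 1 against 0.291, 0.332 and 0.502 CPM in batch 2. Pcdhga5 lay at 16.4, 20.04 and 23.0 CPM and at 0.492, 0.746 and 1.02 CPM. Neither isoform had batches that overlapped, and every batch 2 library was near or below 1 CPM for both. Their log2 fold changes were -5.37 (SE 0.19) and -4.71 (SE 0.18), with adjusted p-values of 2.3e-11 and 5.5e-11 by edgeR. Pcdhgb4, with 35 reads in all of batch 2, passed the filter only through batch 1.

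Pcdhgb6 had the largest share of gamma A and B reads in batch 1, 11.2% ± 0.636 (SD, n = 6), and 4.09% ± 1.21 in batch 2. It lay at 28.4, 32.0 and 34.3 CPM in batch 1 against 1.13, 1.72 and 2.34 CPM in batch 2, a log2 fold change of -4.23 (SE 0.16, adjusted p = 4.4e-11, edgeR). Pcdhga11, from 8.07, 10.7 and 11.3 CPM to 0.289, 0.509 and 0.799 CPM, changed by -4.28 (SE 0.20, adjusted p = 4.2e-10, edgeR) and passed the filter only through batch 1. Both isoforms were lower in each batch 2 library than in any batch 1 library.

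Pcdhga3, Pcdhga6 and Pcdhga7 changed by amounts nearer the middle of the group. Pcdhga3 lay at 25.0, 29.5 and 37.7 CPM in batch 1 against 2.72, 3.16 and 6.61 CPM in batch 2. Pcdhga6 lay at 21.2, 25.9 and 26.5 CPM and at 2.06, 2.25 and 5.23 CPM, and Pcdhga7 at 18.1, 21.6 and 24.3 CPM and at 1.17, 1.82 and 2.91 CPM. The log2 fold changes by edgeR were -3.02 (SE 0.20, adjusted p = 1.3e-08), -3.03 (SE 0.23, adjusted p = 5.1e-08) and -3.52 (SE 0.19, adjusted p = 1.7e-09). For all 3 the batches did not overlap and control replicate 3 was the highest batch 2 library.

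The smallest falls were those of Pcdhga1, Pcdhgb2 and Pcdhgb8, the last of which RefSeq lists as a transcribed pseudogene. Pcdhgb2 lay at 17.5, 21.4 and 27.0 CPM in batch 1 against 8.74, 9.83 and 14.1 CPM in batch 2. Pcdhga1 lay at 7.82, 12.2 and 15.0 CPM and at 3.81, 5.13 and 9.74 CPM, where control replicate 3 of batch 2 reached into the range of batch 1. Pcdhgb8 lay at 5.08, 7.44 and 8.64 CPM and at 2.52, 3.26 and 4.35 CPM. By edgeR the log2 fold changes were -1.07 (SE 0.14, adjusted p = 1.6e-05) for Pcdhgb2, -1.07 (SE 0.23, adjusted p = 0.0010) for Pcdhga1 and -1.12 (SE 0.17, adjusted p = 6.3e-05) for Pcdhgb8.

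These 3 isoforms took larger shares of the remaining gamma A and B reads in batch 2. Pcdhgb2 held 7.66% ± 0.672 of them in batch 1 and 25.1% ± 1.56 in batch 2. Pcdhga1 held 4.25% ± 0.733 and 13.9% ± 2.46, and Pcdhgb8 2.53% ± 0.259 and 8.19% ± 1.86. Pcdhgb1 fell by 2.31 (SE 0.21) but held 4.49% ± 0.263 of the reads in batch 1 and 6.10% ± 1.62 in batch 2. The summed level of gamma A isoforms was 168 ± 16.0 CPM in batch 1 and 22.2 ± 6.90 CPM in batch 2, 7.65-fold lower, and that of gamma B isoforms 114 ± 12.9 and 19.5 ± 3.30 CPM, 5.72-fold lower. Both had an adjusted p of 0.0075 in the exact permutation test, whose smallest unadjusted value of 0.005 both reached. In these bulk samples, fewer cells that use an isoform and less of its RNA per cell cannot be told apart.

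**Figure D3:**
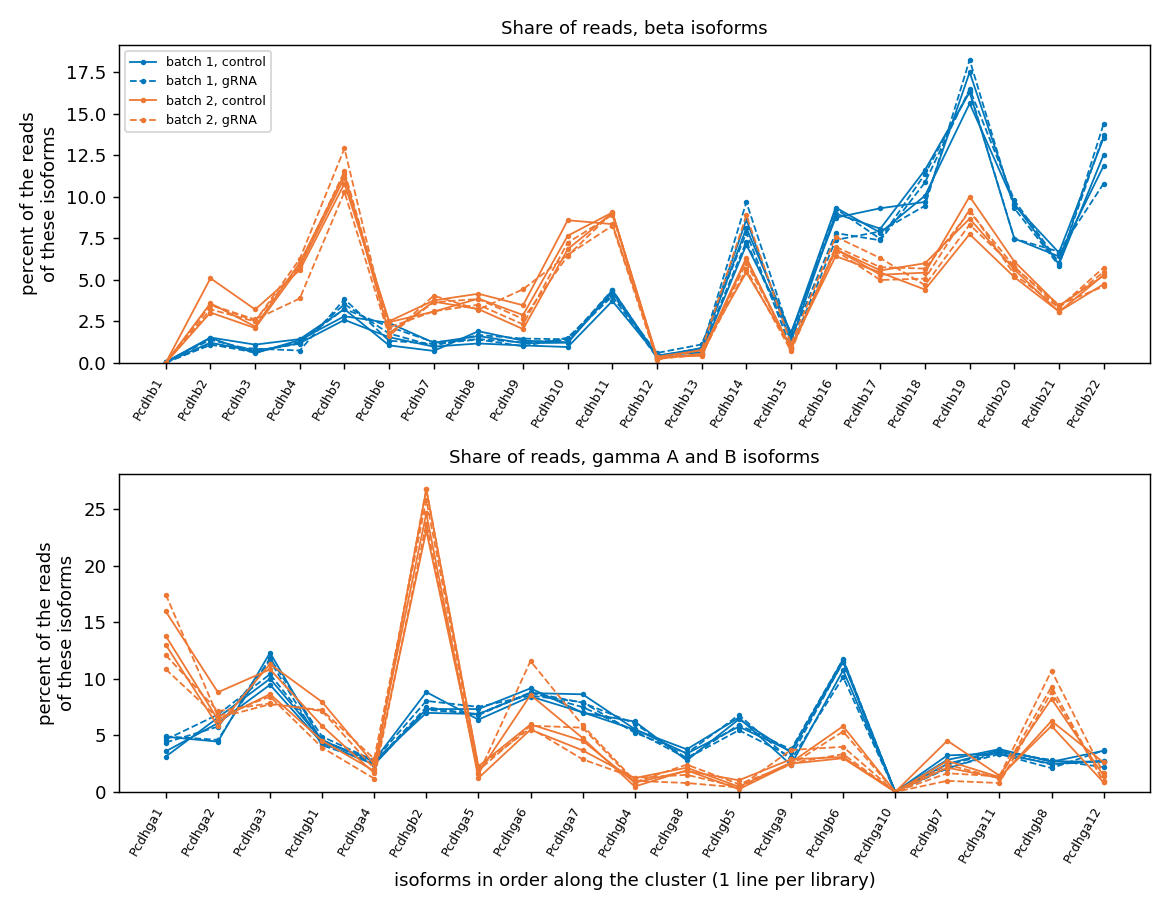
Percent of the beta reads (upper panel) and of the gamma A and B reads (lower panel) that fell on each isoform, in order along the cluster, 1 line per library. Lines of a batch lie close together for both treatments, with Pcdhb5 near 11% in batch 2 and 3% in batch 1 and Pcdhgb2 near 25% and 8%.

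The C-type isoforms did not move together. Pcdhgc3, known for inhibition of Wnt signalling through Axin1 and for a part in dendrite arborization, lay at 85.1, 94.7 and 145 CPM in batch 1 against 90.6, 104 and 120 CPM in batch 2. The batches overlapped almost fully, and the highest library was control replicate 2 of batch 1. The log2 fold change was 0.04 with a 95% interval of -0.22 to 0.30 (SE 0.12, adjusted p = 0.81, edgeR), and its sign turned without gRNA replicate 2 of batch 1 or gRNA replicate 3 of batch 2. Pcdhgc4, which is needed for neuron survival, lay at 12.4, 14.9 and 19.0 CPM in batch 1 against 2.93, 4.06 and 4.85 CPM in batch 2. Pcdhgc5, known to bind GABA-A receptors, lay at 14.2, 16.2 and 19.6 CPM and at 3.23, 4.42 and 6.02 CPM. Both were lower in all 6 batch 2 libraries than in any batch 1 library. By edgeR they fell by 1.93 (SE 0.16, adjusted p = 1.6e-07) and 1.85 (SE 0.16, adjusted p = 1.6e-07).

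Pcdhac2, known for the tiling of serotonergic axons, lay at 21.2, 22.3 and 29.3 CPM in batch 1 against 2.03, 3.49 and 8.36 CPM in batch 2. No batch 2 library reached the range of batch 1, and the highest of them was control replicate 3. The log2 fold change was -2.45 (SE 0.28, adjusted p = 4.0e-06, edgeR). Pcdhac1 had 67 reads in batch 1 and 6 in batch 2 and was not tested, and its levels of 0.358 to 1.70 CPM and 0 to 0.291 CPM did not overlap. As a class, alpha C-type isoforms fell from 24.0 ± 3.48 to 4.35 ± 2.48 CPM, 5.52-fold (adjusted p = 0.0075, exact permutation test). Gamma C-type isoforms together lay at 134 ± 21.98 and 113 ± 11.95 CPM (adjusted p = 0.0563, exact permutation test), a difference that passed without control replicate 3 of batch 1 (-0.30, adjusted p = 0.0281) or without gRNA replicate 3 of batch 2 (-0.28, adjusted p = 0.0281) in the same test.

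**Figure D4:**
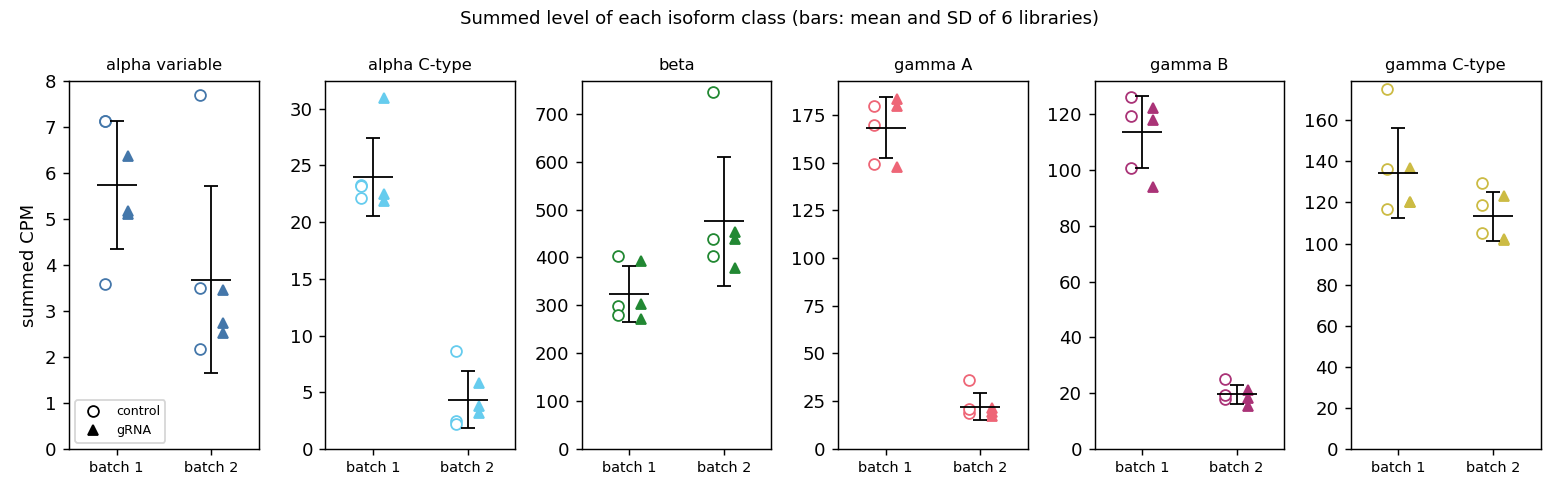
Summed CPM of each isoform class (vertical axes, from 0) by batch, with circles for control and triangles for gRNA libraries and bars for the mean and SD of the 6 libraries of a batch. Gamma A, gamma B and alpha C-type sums are lower in all 6 libraries of batch 2, and the highest beta sum, 745 CPM, is control replicate 3 of batch 2.

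The make-up of the protocadherin reads changed with these levels. Beta isoforms held 41.9% ± 3.83 (SD, n = 6) of all clustered protocadherin reads in batch 1 and 74.0% ± 3.21 in batch 2. Gamma A isoforms held 21.9% ± 1.16 and 3.44% ± 0.364, and gamma B isoforms 14.7% ± 0.853 and 3.10% ± 0.311. Gamma C-type isoforms held 17.7% ± 3.96 and 18.3% ± 3.20, with wide overlap.

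Within each array, evenness of use was measured with the inverse Simpson index, the number of equally used isoforms that would give the same chance of drawing 1 isoform in 2 reads. For beta isoforms it rose from 10.8 ± 0.410 in batch 1 to 15.5 ± 0.485 in batch 2. For gamma A and B isoforms it fell from 14.5 ± 0.216 to 8.44 ± 0.330, and for variable alpha isoforms from 5.59 ± 2.10 to 2.09 ± 0.308. The batches did not overlap in any of the 3 arrays, and each difference had an adjusted p of 0.0075 in the exact permutation test within treatment. So beta reads were spread more evenly over their isoforms in batch 2, and variable alpha and gamma A and B reads less evenly. Within control libraries alone and gRNA libraries alone the differences had the same direction (4.69 and 4.57 for beta, -6.00 and -6.04 for gamma A and B, -3.11 and -3.88 for variable alpha), where 3 against 3 libraries cannot go below p = 0.1 in an exact permutation test.

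Libraries of a batch were alike in isoform use whatever their treatment. The likeness of a pair of libraries was taken as the overlap of isoform shares, the sum over all members of the smaller share of the 2 libraries. It ran from 86.9% to 96.6% (median 90.9%) over the 15 pairs of batch 1, from 87.3% to 96.2% (median 91.8%) over the 15 pairs of batch 2 and from 56.5% to 65.1% (median 60.4%) over the 36 pairs between batches. Over all genes tested, the medians were 94.0% and 94.1% within the batches and 86.1% between them. In batch 1 the median was 90.5% for pairs of the same treatment and 91.1% for pairs of different treatments, and in batch 2 90.7% and 92.1%. For 11 of 12 libraries the closest match was a library of the other treatment, and for 12 of 12 it was in the same batch. For comparison, 11 of 12 best matches over all genes tested were also of the other treatment.

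Single arrays gave the same picture. Beta isoforms had median overlaps of 94.1% and 92.9% within the batches and 66.6% between them, and gamma A and B isoforms 94.3%, 88.8% and 63.2%. As a description across genes, which are not independent replicates, the median Pearson correlation of log2(CPM + 0.5) over members was 0.98 within batch 1, 0.99 within batch 2 and 0.64 between batches. Over all genes tested it was 0.99, 0.99 and 0.90. Pairs share depth and library preparation within a batch, and pairs of libraries are not independent, so no test was made.

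Position in the array was described by the order of genes in the RefSeq annotation, where Slc25a2 and Taf7, which belong to other families, are listed among the members. Along the 21 tested beta isoforms, Spearman's rho between order and log2 fold change was -0.87. In batch 1, CPM rose along the 22 beta isoforms (rho 0.74), and in batch 2 the relation was weaker (rho 0.23). Along gamma A isoforms the fold change also fell with order (rho -0.63, n = 11), while along the 7 gamma B isoforms rho was -0.07. The 11 include Pcdhga11 and Pcdhga12, the last in order, and the 7 include Pcdhgb4 and Pcdhgb5. These passed the filter only through batch 1, so a fall was the only change open to them, and rho without them was not computed. Thus the relation to order was strongest in the beta array. There the values divided between Pcdhb11 and Pcdhb12 (medians of 2.16 and -0.10). The largest rise, of Pcdhb10 (3.03), lay late among the early isoforms, and rho within either part was not computed. Gamma B isoforms showed no such relation: Pcdhgb2 and Pcdhgb8, with the smallest falls, lie on either side of Pcdhgb4, Pcdhgb5 and Pcdhgb6, with the largest. These points share libraries and are not corrected for gene length, and no p is given.

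Of 11 genes tested around and between the arrays, 6 rose and 0 fell, where 28.4% of all genes tested rose and 33.1% fell. The largest difference was 1.28. Taf7, a general transcription factor subunit, differed by 0.09 (SE 0.20, adjusted p = 0.72, edgeR). On the alpha side, Zmat2 differed by 0.16 (adjusted p = 0.19), and on the gamma side, Diaph1 by -0.03 (adjusted p = 0.74), both by edgeR. Farther out on the alpha side, Hars2 rose by 0.33 (adjusted p = 0.0014) and Wdr55 by 0.46 (adjusted p = 0.011), and on the gamma side Hdac3 rose by 0.32 (adjusted p = 6.1e-04) and Fchsd1 by 0.44 (adjusted p = 0.020), all by edgeR. Rell2 and Arap3, both at 2.43 CPM or less on average in either batch, rose by 1.28 and 1.25. Arap3 averaged 0.513 CPM in batch 1 and may have passed the filter only through batch 2.

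For gRNA against control, no member passed the test. Over both batches with batch as a term, 0 of 45 tested members passed edgeR's test at an adjusted p of 0.05, as did 0.0% of all 17704 genes tested, where the smallest adjusted p was 0.99985. At an unadjusted p under 0.05 there were 230 genes, and 1 of them was a member, Pcdhgb7. DESeq2 also called 0 members. In batch 1 alone 0 of 47 members tested passed (0.0% of 16988 genes), in batch 2 alone 0 of 40 (0.0% of 15647 genes), and 0 of 47 showed a treatment effect that differed between batches (0.0% of 18279 genes). At an unadjusted p under 0.05 these 3 comparisons held 147, 116 and 236 genes and 0, 1 and 0 members.

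Pcdhgb7, a gamma B isoform, had the smallest p among the members. In batch 1 its levels were 8.19, 8.08 and 7.56 CPM in the controls and 5.18, 7.13 and 6.32 CPM in the gRNA libraries. In batch 2 they were 1.65, 0.861 and 1.67 CPM in the controls and 0.669, 0.847 and 0.361 CPM in the gRNA libraries. All gRNA libraries were below all controls of their batch, narrowly in batch 2. The log2 fold change was -0.62 (SE 0.22, unadjusted p = 0.0153, adjusted p = 0.99985, edgeR), with -0.34 in batch 1 and -1.10 in batch 2, so the difference did not pass the adjustment over all genes.

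The other members singled out by the smallest p-values, over both batches or within 1, did not pass either. Pcdhb2 differed by -0.46 (95% interval -1.01 to 0.08), Pcdha11 (ENSMUSG00000007440) by -0.53 (-1.21 to 0.15) and Pcdhb4 by -0.37 (-0.86 to 0.12). Pcdhb2 lay at 12.2, 15.7 and 37.9 CPM in the batch 2 controls and at 15.8, 14.1 and 13.2 CPM in the batch 2 gRNA libraries. The groups overlapped, and control replicate 3 alone made the control mean higher. Without that library the values over both batches were -0.12 for Pcdhb2 and -0.09 for Pcdha11. Pcdhb5, at 0.27 in batch 1, and Pcdhga3, at -0.66 in batch 2, had an adjusted p of 1 and 0.998 by edgeR. Over both batches Pcdhb5 was at -0.01 (95% interval -0.38 to 0.35), and its sign turned without replicate 3 of either treatment in batch 2 or without control replicate 3 of batch 1.

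The precision of this comparison is given by the intervals. For 40 of 45 members the 95% interval lay inside a 2-fold change in either direction, and for 26 inside a 1.5-fold change. Class levels differed by -0.22 (variable alpha) to 0.14 (alpha C-type) on the log2 scale, with adjusted p-values of 0.591 to 0.685 in exact permutation tests within batch. Evenness differed by -0.20 for beta, -0.20 for gamma A and B and 0.66 for variable alpha, all with an adjusted p of 0.591 in the same exact permutation test. Over both batches, 40 of 45 members had a value below 0, with a median of -0.14, against 52.3% of all genes tested, with a median of -0.01. The median over members was -0.01 in batch 1 and -0.26 in batch 2, where control replicate 3 lies.

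**Figure D5:**
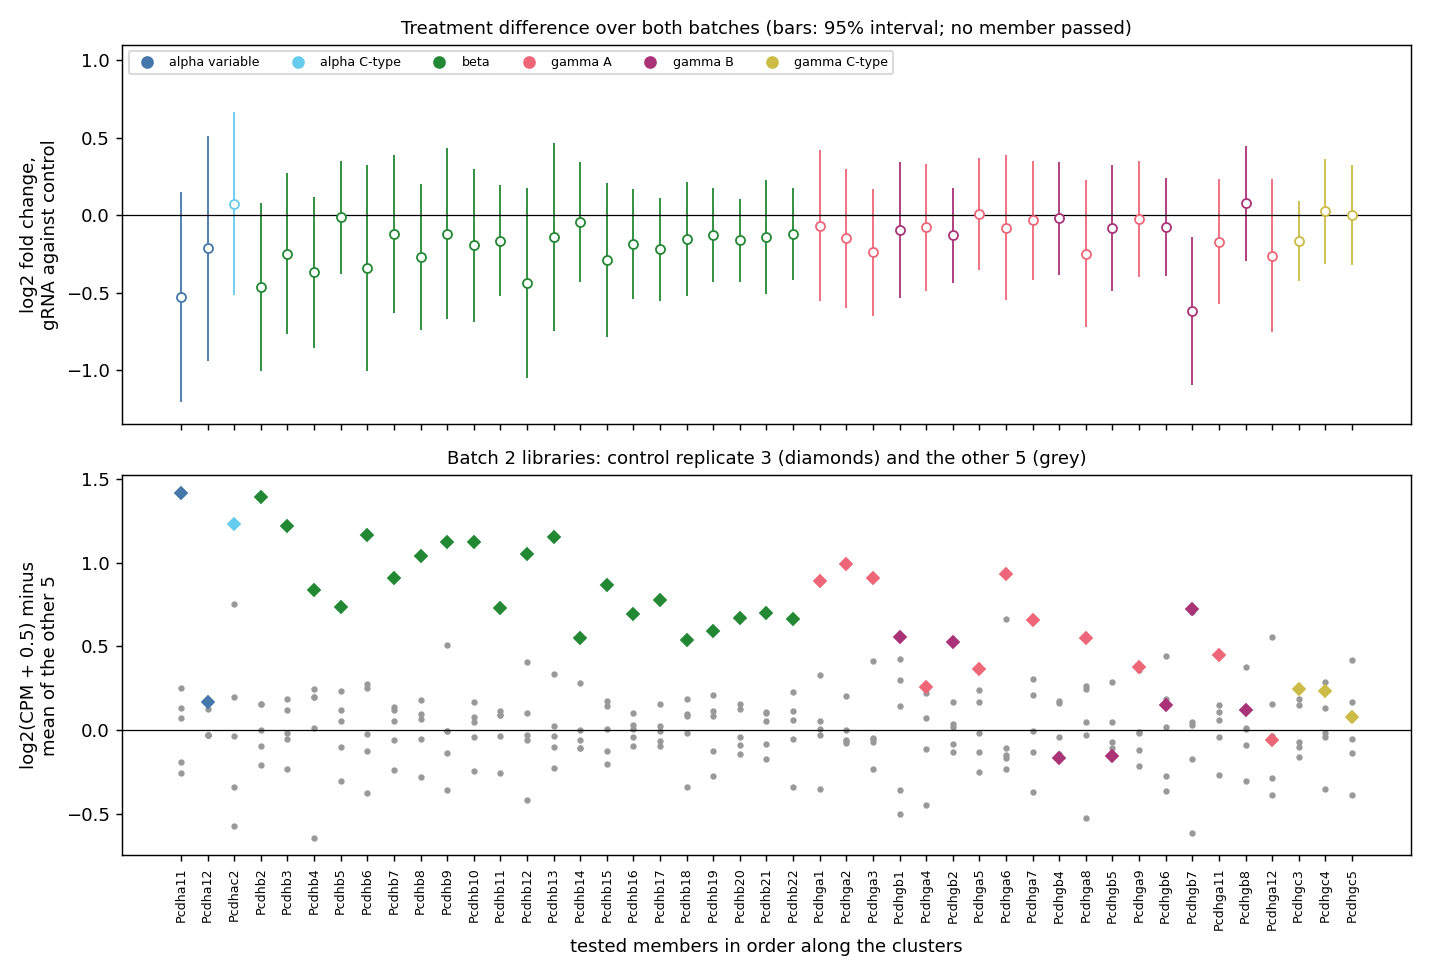
Upper panel: log2 fold change of gRNA against control over both batches, with 95% intervals, for the 45 tested members in order along the clusters. Lower panel: log2(CPM + 0.5) of each batch 2 library minus the mean of the 5 libraries other than control replicate 3, with that library as diamonds, which lie above 0 for all members that pass the filter in batch 2.

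Control replicate 3 of batch 2 had more clustered protocadherin RNA than the rest of its batch. It was above the mean of the other 5 libraries for 40 of 40 members that pass the filter in batch 2, with a median difference of 0.73 on the log2(CPM + 0.5) scale, whereas 53.7% of all genes tested were above, with a median of 0.04. It was the highest library for 35 of these 40 members, and for 34.8% of all genes tested. The difference was 1.08 in the median for Pcdhb2 to Pcdhb11, 0.69 for Pcdhb12 to Pcdhb22, 0.66 for gamma A, 0.53 for gamma B and 0.23 for gamma C-type isoforms. This library also had the highest batch 2 sum for 9 of the 13 gene lists used here and the lowest for 1, the microglia markers (0.727 CPM, highest library 2.40 CPM). The 9 were other cadherin superfamily genes (3172 CPM, lowest library 2375 CPM), the methylation and silencing genes (4134 CPM, lowest 3849 CPM), and markers of stem and progenitor cells (1980 CPM, lowest 1537 CPM), neurons (774 CPM, lowest 622 CPM), astrocytes (268 CPM, lowest 103 CPM), the oligodendrocyte lineage (825 CPM, lowest 622 CPM), endothelial and mural cells (8.28 CPM, lowest 3.26 CPM), fibroblasts (17.8 CPM, lowest 1.501 CPM) and pluripotency (1.24 CPM, lowest 0.492 CPM). Their part in its protocadherin levels was not tested. With this library left out, 10 members were called higher and 29 lower between batches out of 47 tested, and without both replicates 3 of batch 2, 10 and 28. The calls over all genes tested also grew in these fits, to 65.8% and 66.2%, from 61.4% with all libraries.

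Isoform use stayed close to that of its batch in the same library. Its overlaps of isoform shares with the other 5 had a median of 91.1%, and those among the other 5 a median of 93.4%. It was not the only library of batch 2 with low overlaps. Its own pairs ran from 87.3% to 92.1%, and those of gRNA replicate 3 of batch 2 from 87.3% to 91.8%. Over all genes tested the medians were 89.5% and 96.1%. In batch 1 the beta isoforms were highest in control replicate 3 for 10 of 21 and in gRNA replicate 3 for 9 of 21, while 19.5% and 14.1% of all genes tested were highest there. The summed beta level in these libraries was 402 and 394 CPM, and 271 to 302 CPM in the other 4. The median SD among libraries on the log2 scale was 0.36 for members and 0.20 for all genes tested in batch 2, and 0.24 and 0.19 in batch 1.

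Genes that act on protocadherin promoters had median differences near 0 between batches, with single members that rose or fell. Of 14 genes for CTCF and cohesin, which loop enhancers to the chosen promoters, 2 rose and 4 fell, with a median log2 fold change of 0.01. Mau2, part of the cohesin loader, rose by 0.51 (SE 0.07), and Wapl, which releases cohesin, and Stag1, a cohesin subunit, fell by 0.32 (SE 0.06) and 0.29 (SE 0.05). Ctcf itself differed by 0.12 (SE 0.07, adjusted p = 0.13, edgeR). Of 18 genes for promoter methylation and silencing, 4 rose and 3 fell, with a median of 0.02. Dnmt3b, the methyltransferase known to methylate variable protocadherin promoters, rose by 1.11 (SE 0.13, adjusted p = 3.6e-06, edgeR), from 7.33 ± 0.623 to 15.8 ± 2.23 CPM (SD, n = 6), with no overlap. Atf7ip, a partner of the methyltransferase Setdb1, fell by 0.72 (SE 0.07), and Wiz, which works with the histone methyltransferases Ehmt1 and Ehmt2, rose by 0.59 (SE 0.08). Smchd1, a silencer of the clusters, differed by 0.07 (SE 0.07, adjusted p = 0.41, edgeR). Of all genes tested, 61.4% were called.

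Of 17 genes for cytoplasmic partners and processing, 3 rose and 2 fell, with a median of -0.02. Axin1, which binds Pcdhgc3, rose by 0.46 (SE 0.06), Abi2, of the WAVE complex, fell by 0.58 (SE 0.07), and Ptk2b, a kinase inhibited by protocadherins, fell by 2.95 (SE 0.44) from 3.23 to 0.426 CPM. Of 11 other cadherin superfamily genes, 4 rose and 4 fell, with a median of -0.04, where 61.4% of all genes tested were called. Cdh11, a mesenchymal cadherin, fell by 6.02 (SE 0.23), from 41.7 to 63.6 CPM in batch 1 to 0.424 to 1.38 CPM in batch 2. Celsr2 rose by 0.91 (SE 0.09), and Celsr3, a neuronal cadherin of axon guidance, fell by 1.37 (SE 0.18). By treatment, 0 genes of these 4 lists were called.

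Markers of other cells were called between batches too, in shares to be read against the 61.4% of all genes tested. Of 7 neuron markers tested 1 rose and 5 fell, of 6 astrocyte markers 1 rose and 4 fell, of 6 oligodendrocyte lineage markers 3 rose and 1 fell, and of 10 stem and progenitor markers 1 rose and 6 fell. Summed astrocyte markers were 428 to 669 CPM in batch 1 and 103 to 268 CPM in batch 2, and summed neuron markers 713 to 1009 CPM and 622 to 774 CPM. The neuron sum was mostly Map2, at 719 and 658 CPM on average, which differed by -0.13 (adjusted p = 0.27, edgeR). The median log2 fold change over the neuron markers tested was -3.64, and the 1 that rose was Tubb3, by 2.34. Endothelial and mural markers (4 tested, 3 fell) summed to 63.0 to 167 CPM and 3.26 to 8.28 CPM, and ependyma markers (2 tested, 2 fell) to 49.8 to 70.7 CPM and 26.8 to 37.8 CPM. In batch 1 the endothelial and mural sum was mostly Acta2, at 107 CPM on average against 0.542 CPM in batch 2. Kdr, of the same list, did not pass (0.34, adjusted p = 0.30, edgeR). Oligodendrocyte lineage markers summed to 508 to 867 CPM and 622 to 825 CPM. Microglia markers (2 tested, 2 fell) summed to 3.02 to 6.61 CPM and 0.727 to 2.40 CPM, fibroblast markers (1 tested, 1 rose) to 2.15 to 3.59 CPM and 1.501 to 17.8 CPM, with Dcn at 0 in batch 1 and Col3a1 at 0 in batch 2, and pluripotency markers (1 tested, 0 called) to 0.265 to 0.834 CPM and 0.492 to 1.24 CPM, with Zfp42 at 0 in both. Several markers that fell averaged little in batch 2 (Snap25 0.0977, Dcx 0.155, Rgs5 0.0367, Csf1r 0.247 and Ccdc153 0.502 CPM). Such markers may have entered the test only through batch 1, where a fall is the only call open. The neuron median includes Snap25 and Dcx. Elavl4, which also fell, averaged 6.40 CPM in batch 2. The part of these cell types in the isoform differences between batches was not tested.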

How the data were processed

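RNA-seq libraries were made from mouse neural stem cells with a stranded, ribosomal RNA-depleting total RNA kit, per the labels' protocols. The deposited files hold raw, whole-number counts of reads for each Ensembl gene. The submitters' processing notes name Trimmomatic, STAR, SAMtools and HTSeq on GRCm39. STAR is given as version 2.7.10b in the notes of the series, which also cover the footprint libraries. For the versions of the other tools named here, annotation release, counting mode and strand setting the sources used here give nothing. The 5 HTSeq summary lines were left out. Symbols were matched to 51880 identifiers (90.8%). Ribosome footprint libraries were not analysed here.

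From the counts, genes were kept by filterByExpr (minimum count 10), scaled by TMM and tested with edgeR 4.0.16 in R 4.3.3 (quasi-likelihood, Benjamini-Hochberg at 0.05 over all genes; treatment or batch as covariate). CPM use TMM-scaled library sizes. Class sums, as log2(CPM + 0.5), and inverse Simpson indices were compared by two-sided exact permutation over 400 relabellings within strata, adjusted over the 9 values of a contrast. The scripts were tested on simulated data. Alternatives were DESeq2 1.42.0, other filters, covariates, scalings, pseudocounts, a minimum fold, the Shannon index, permutation without strata and leaving out libraries; leaving out both replicates 3 of batch 2 was chosen after seeing the data.

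Gene order is that of RefSeq on GRCm38.p6, used for order and names only. Exon lengths in the files' build were not used here, so the planned levels per kilobase were replaced by CPM and shares. Named members were all C-type isoforms, the 3 with the highest CPM per class and batch, the 5 largest rises and falls, and the 4 (over both batches) and 2 (per batch) smallest p-values for treatment; for each list of regulators, the 3 smallest p-values. Others named were chosen after their values were seen. Members and lists were chosen with earlier results of these data known.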

Additional observations from a re-analysis of the deposited data

Results flagged for a closer look

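In each batch of 6 libraries, the gap between the highest or lowest library and its nearest neighbour was divided by the whole range of the batch, and a ratio above Dixon's 95% critical value marks a library far from the others. Of 84 sets of values examined, 12 were above it; chance alone does so in about 1 of 20. Most concern control replicate 3 of batch 2, which had the highest value. Its gap ratio was 0.86 for Pcdhb2 (37.9 CPM, next highest 15.8), 0.805 for Pcdhb3 (23.9 and 11.4), 0.757 for Pcdhb7 (28.0 and 16.2), 0.79 for Pcdhb10 (63.9 and 32.8) and 0.703 for Pcdhb11 (62.2 and 40.4). For Pcdha11 (ENSMUSG00000007440) it was 0.809 (5.89 and 2.34 CPM). The summed levels of whole classes stood apart in that library as well, with ratios of 0.76 for variable alpha (7.70 and 3.51 CPM), 0.793 for beta (745 and 453 CPM) and 0.772 for gamma A isoforms (35.9 and 21.3 CPM).

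In batch 1, gRNA replicate 2 was high for Pcdhac2, with a ratio of 0.81 (29.3 and 22.7 CPM), and so for the alpha C-type sum, with 0.85 (31.0 and 23.2 CPM). Control replicate 2 of batch 1, the library with the fewest counts, was high for the gamma C-type sum, with a ratio of 0.658 (175 and 137 CPM), of which Pcdhgc3 made up 145 CPM.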

How the results depend on the processing

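The members called between batches (10 higher, 25 lower) numbered 10 to 11 higher and 22 to 33 lower under DESeq2, the other filters, no treatment term and a minimum fold of 1.5, and 10 to 11 higher and 25 to 29 lower with any 1 library left out. The minimum fold cut the calls over all genes from 5022 higher and 5857 lower to 2094 and 3500. Of all genes tested, 31.6% to 62.6% were called under the first group of alternatives, with 31.6% at the minimum fold. With any 1 library left out, 58.2% to 65.8% of all genes tested were called. For treatment, 0 members were called under each of these alternatives. With no filter, 1 gene of 37217, not a member, was called over both batches. In batch 1 alone 1 gene of 34546 was then called, and in batch 2 alone 0 of 32352. For the difference of the treatment effect between batches, 7 genes were called higher and 35 lower of 37217 without the filter. Gamma C-type isoforms passed between batches when labels were permuted without strata (-0.23, adjusted p = 0.0487, exact permutation). With 1 library left out, batch differences in log2 class level ranged from -0.88 to -0.47 for variable alpha, 0.39 to 0.62 for beta and -0.30 to -0.16 for gamma C-type isoforms, each crossing the threshold in at least 1 fit, and Pcdhgc3 ranged from -0.012 to 0.17. Treatment differences, none of which passed, changed sign: variable alpha level -0.40 to 0.0029, alpha C-type level -0.024 to 0.42, variable alpha evenness -0.040 to 1.38 and Pcdhb5 -0.094 to 0.16. Without both replicates 3 of batch 2, an alternative chosen after seeing the data, variable alpha (-0.84) and gamma C-type (-0.32) levels passed between batches, Pcdhgc3 was at -0.045, and the treatment differences were 0.043 for variable alpha, 0.032 for beta, 0.0066 for gamma B and 0.23 for Pcdhb5. The causes were not tested. The planned evenness from counts per unique exon length was not run. No paired analysis was possible because the RNA-seq replicate numbers follow accession order and pair nothing, and the footprint libraries, whose labels share numbers, were not compared. Depth limits the alpha arrays most, with 27 to 137 variable alpha reads per library in batch 1 and 29 to 106 in batch 2.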
